A study of Mus musculus with 6 samples.

Results

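LIM homeobox genes outside Lhx6 and Lhx8 were followed in RNA-seq gene counts of mouse embryos, taken from the medial ganglionic eminence (MGE). The MGE is the ventral forebrain zone that produces many cortical interneurons, and Lhx6 and Lhx8 are its own LIM homeobox genes. The other 10 genes described here, Lhx1, Lhx2, Lhx3, Lhx4, Lhx5, Lhx9, Isl1, Isl2, Lmx1a and Lmx1b, were taken by symbol, and all 10 were found among 49315 counted genes. The tissue was dissected at embryonic day 14. Both groups carried Nkx2.1-Cre, which acts in progenitors of the Nkx2-1 domain, and the Ai14 reporter of recombination. The WT group was Prdm16+/+ and the KO group was Prdm16fl/fl. Each group held 3 libraries, and each library came from total RNA of 3 pooled embryos (6 eminences). The dissections were not sorted, so a library holds recombined cells together with all other cells of the tissue, and a lower value can mean fewer cells of a type or less RNA per cell. Prdm16 encodes a zinc finger protein that controls transcription in neural stem cells, and the comparison asks which transcripts differ when it is deleted in this lineage.

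LIM homeodomain proteins carry a pair of LIM domains, which bind other proteins, and a homeodomain, which binds DNA. They act with the adaptor Ldb1, whose dimers join LIM proteins into complexes, while the LIM-only proteins Lmo1 to Lmo4 bind the same adaptor and have no homeodomain. In the developing brain each gene marks particular regions and neuron classes. Lhx2 and its closest relative Lhx9 serve in pallial and diencephalic development, Lhx1 and Lhx5 in Cajal-Retzius cells, the thalamic eminence and the hypothalamus, Isl1 in striatal and cholinergic neurons, Lmx1a in the roof plate and cortical hem, and Lhx3, Lhx4 and Isl2 are best known from motor neurons and, for Lhx3 and Lhx4, the pituitary.

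The promoters of the 3 members that differed between the groups are shown first, since a divergent transcript at one of them moved with its gene. Each is the 250 bases before a RefSeq start (GRCm38.p6), 5′ to 3′ on the gene's own strand. Capitals mark CCAAT boxes (CCAAT or ATTGG) and GC boxes (GGGCGG or CCGCCC), searched on both strands.
Lhx1: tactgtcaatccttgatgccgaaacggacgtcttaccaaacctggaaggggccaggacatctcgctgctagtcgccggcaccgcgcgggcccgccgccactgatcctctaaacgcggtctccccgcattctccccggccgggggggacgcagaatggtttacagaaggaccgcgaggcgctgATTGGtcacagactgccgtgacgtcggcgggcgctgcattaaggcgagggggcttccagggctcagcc
Lhx2: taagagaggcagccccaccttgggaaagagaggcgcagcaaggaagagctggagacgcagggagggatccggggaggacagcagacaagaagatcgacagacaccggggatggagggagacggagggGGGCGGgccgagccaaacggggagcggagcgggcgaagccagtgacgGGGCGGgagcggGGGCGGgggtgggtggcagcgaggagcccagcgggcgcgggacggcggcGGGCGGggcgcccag
Lhx9: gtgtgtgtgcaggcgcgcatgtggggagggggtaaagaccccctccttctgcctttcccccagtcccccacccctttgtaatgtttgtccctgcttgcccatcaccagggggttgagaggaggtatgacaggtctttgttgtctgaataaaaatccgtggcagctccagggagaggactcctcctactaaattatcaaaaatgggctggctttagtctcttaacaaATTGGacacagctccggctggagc
The Lhx1 window (chr11:84525535-84525784, minus strand) spans the 125 bases between Lhx1 and Lhx1os, a noncoding RNA gene that starts at 84525660 on the other strand. It held 26 CpG dinucleotides and 1 CCAAT box. The Lhx2 window (chr2:38339031-38339280, plus strand) held 25 CpG and 4 GC boxes, while the window of a second RefSeq start of Lhx2 (chr2:38351058-38351307, not printed) held 24 CpG and 0 GC boxes. The Lhx9 window (chr1:138842445-138842694, minus strand) lies inside the GENCODE gene, 6133 bases from its outermost start, and held 4 CpG and 1 CCAAT box. The median over 32851 RefSeq promoters was 6 CpG, so the Lhx1 and Lhx2 windows were rich in CpG and that of Lhx9 was not. A CCAAT box occurred in 33.8% and a GC box in 32.7% of all these windows. The homeodomain core TAATTA (4.84% of windows) was in none of the 3, nor was the TATA box letter run TATAAA (12.4%).

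Whether related members could share reads was checked on their transcripts. The longest run of bases common to Lhx1 and Lhx5 was 20 bases, and that of Lhx2 and Lhx9 was 17 bases, each within the coding part of both genes.
Lhx1 and Lhx5: cacctcaactgcttcacctg
Lhx2 and Lhx9: atgaaggacagcctggt
Over 45 pairs of members the median was 14 bases. The single run over 30 bases was one of 65 bases between Lhx5 and Lhx9, a simple repeat with 3 kinds of dinucleotide outside their common coding sequence.

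Total counts ran from 33188277 to 55552298 per library. Of 18079 genes that passed the filter on low counts, 20.2% differed between the groups at an edgeR adjusted p under 0.05, 9.72% as higher and 10.5% as lower in the 3 pools with the KO label. Counts of Prdm16 were 2572, 1574 and 1743 for WT 1 to 3, against 2376, 1870 and 2527 for KO 1 to 3 (log2 fold change 0.02, SE 0.09, edgeR adjusted p = 0.884). Counts were per gene and the exons lost from the floxed allele were not given in the sources used here. This gene therefore does not check the label, KO pools below means the pools so labelled, and every direction rests on that label. On the second principal component (16.1% of the variance) KO 1 lay at -35.0, against 11.6 and 12.4 for KO 2 and KO 3, and Xist was at 1.92 CPM in KO 1 and at 721 to 1423 CPM in the other 5 libraries. The Y-linked genes Ddx3y, Kdm5d, Uty and Eif2s3y were at 0.0543 to 0.199 CPM in KO 3 and at 4.27 to 86.3 CPM in the other 5 libraries. KO 1 and KO 3 thus lay at opposite ends for these genes, which report the sex make-up of a pool. By them KO 1 read as male and KO 3 as almost wholly female, while the rest held both signals. KO 2 lay between those 2 pools (Xist 721 CPM, Kdm5d 39.2 CPM), yet beside KO 3 on the second component. The part of sex make-up in the differences between the groups was not tested. Leaving out KO 1 raised the called share to 41.5% (20.6% higher), while leaving out any other library left 1191 to 1960 called genes in place of 3655. MGE markers were present, with 646 ± 29.4 CPM (the count relative to the TMM-adjusted library total; SD, n = 3) of Nkx2-1 in WT against 769 ± 117 CPM in KO pools.

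Of the 10 members, 6 passed the filter and were tested, and 3 of them (Lhx1, Lhx2 and Lhx9) were higher in KO pools. Over all tested genes 9.72% were higher and 10.5% lower. In edgeR 0 of the 6 members were lower, 0 also at an unadjusted p under 0.05 and 0 in DESeq2 and limma voom. The other 3 tested members (Lhx5, Isl1 and Lmx1a) did not pass. The median log2 fold change of the 6 was 0.59, and that of all tested genes was -0.0024. The same 3 genes were called without each library in turn, KO 1 included.

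**Figure D1:**
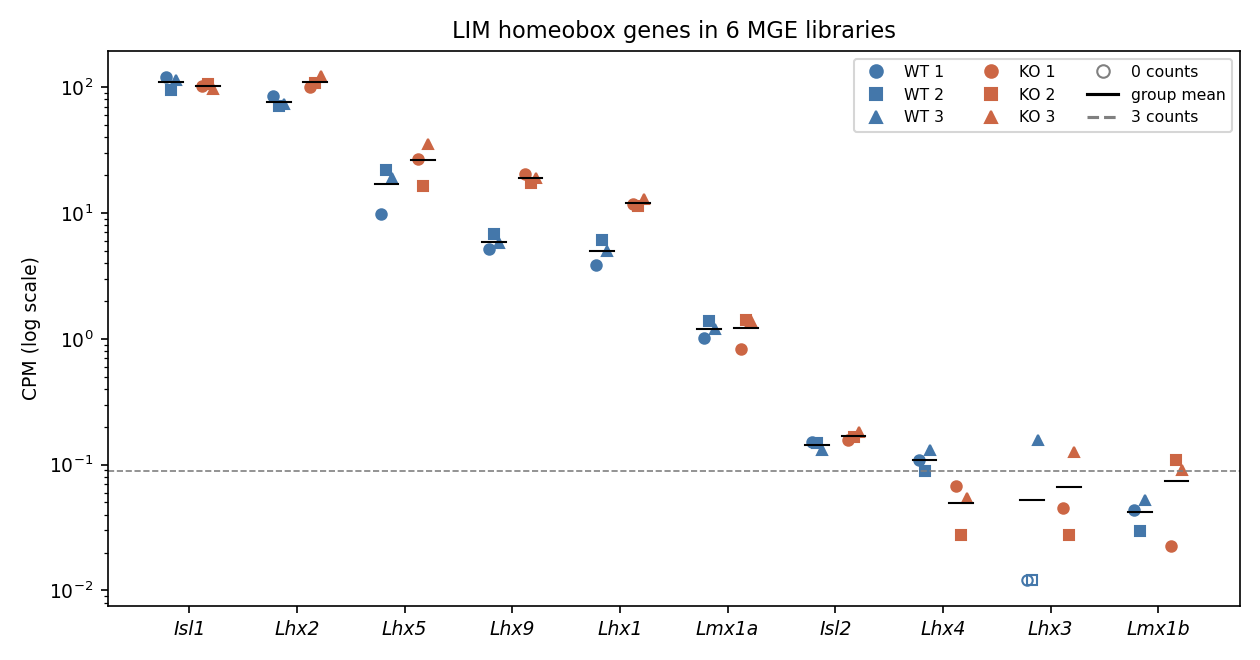
CPM of the 10 LIM homeobox genes (log axis) in WT (blue) and KO (orange) libraries, with group means as black lines; the dashed line is 3 counts in the shallowest library, and open symbols at the bottom stand for 0 counts. The KO libraries of Lhx2, Lhx9 and Lhx1 lie above all their WT libraries, those of Lhx5, Isl1 and Lmx1a overlap WT, and the 4 genes on the right stay at 10 counts or fewer.

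Per length of transcript (RPKM, CPM per kilobase of exon) the members covered a wide range below the MGE's own genes. In WT, Lhx6 stood at 136 ± 6.49 RPKM and Lhx8 at 65.5 ± 2.80 RPKM. They were followed by Isl1 (27.6 ± 3.25), Lhx2 (17.4 ± 1.72), Lhx5 (6.30 ± 2.38), Lhx1 (1.22 ± 0.278), Lhx9 (0.623 ± 0.0832) and Lmx1a (0.352 ± 0.0523), all in RPKM. The ranges of these neighbours in the order did not overlap. Isl2 (0.0655 RPKM) was lower still, and Lhx4, Lhx3 and Lmx1b followed at 0.0191 RPKM or less, with the libraries of Lhx3 overlapping those of both others. In KO pools, Lhx2 (25.1 ± 2.64 RPKM) reached the level of Isl1 (25.6 ± 1.12 RPKM) and their libraries overlapped, as did those of Lhx6 (105 ± 5.52 RPKM) and Lhx8 (92.2 ± 13.3 RPKM). The union of all exons of Lhx9 is 9494 bases, longer than its longest annotated transcript of 4937 bases. On longest transcripts Lhx9 came to 3.81 ± 0.310 and Lhx1 to 3.12 ± 0.198 CPM per kilobase in KO pools, which turns their order, while in WT they overlapped at 1.20 ± 0.160 and 1.30 ± 0.294.

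Lhx9 (ENSMUSG00000019230, GRCm38 chromosome 1, 138825186 to 138848577, protein coding) had the largest fold of the tested members. It was at 5.18, 6.75 and 5.81 CPM in WT 1 to 3, against 20.4, 17.3 and 18.8 CPM in KO 1 to 3. The groups were far apart, with 6.75 CPM in the highest WT and 17.3 CPM in the lowest KO library, and spread little within each group (coefficient of variation 13.4% in WT and 8.12% in KO). Lhx9 rose 3.20-fold (log2 fold change 1.68, 95% interval 1.42 to 1.93, edgeR adjusted p = 4.75e-05). Of all tested genes 99.5% had a lower log2 fold change. The 1 neighbour tested within 100 kb, 2310009B15Rik, which lies 3406 bases away on the same strand, rose as well, from 5.28 ± 0.332 to 9.13 ± 1.09 CPM (log2 fold change 0.79, edgeR adjusted p = 0.00273).

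Lhx2 (ENSMUSG00000000247, chromosome 2, 38339281 to 38369733, protein coding), the relative of Lhx9 that keeps cortical progenitors in their regional fate, was far more abundant and rose less. It was at 85.1, 71.3 and 73.0 CPM in WT 1 to 3, against 99.9, 108 and 123 CPM in KO 1 to 3. The groups did not overlap, although KO 1 lay nearer to WT 1 than to KO 3. The rise was 1.44-fold (log2 fold change 0.53, 95% interval 0.32 to 0.73, edgeR adjusted p = 0.00544). Without KO 1 the log2 fold change was 0.60 (edgeR adjusted p = 0.00158).

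Whether Lhx9 and Lhx2 differed by unequal amounts was asked within each library. The log2 ratio of Lhx9 to Lhx2, per length, was -5.15, -4.51 and -4.76 in WT 1 to 3, against -3.40, -3.75 and -3.82 in KO 1 to 3. All 3 KO ratios were above all WT ratios, with a mean difference of 1.15 (two-sided exact permutation test, p = 0.1, the lowest value possible with 3 libraries a group). The 2 antisense gene models within Lhx2 were also counted. Gm27197 rose from 0.251 ± 0.0524 to 0.652 ± 0.189 CPM (log2 fold change 1.42, edgeR adjusted p = 0.0176) and Gm13584 had 0.623 ± 0.0966 and 0.753 ± 0.0391 CPM (edgeR adjusted p = 0.382). Neither shares an exonic base with Lhx2, but the strand setting of the counting was not given in the sources used here. Unspliced Lhx2 reads that lie within the models' exons could therefore be counted for the models.

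Lhx1 (ENSMUSG00000018698, chromosome 11, 84518284 to 84525535, protein coding), known from Cajal-Retzius cells and the thalamic eminence in the forebrain, was at 3.86, 6.12 and 4.98 CPM in WT 1 to 3, against 11.7, 11.5 and 12.9 CPM in KO 1 to 3. The KO libraries lay close together (coefficient of variation 6.33%), and each was above every WT library. Lhx1 rose 2.43-fold (log2 fold change 1.28, 95% interval 0.94 to 1.62, edgeR adjusted p = 0.000875). The divergent noncoding RNA Lhx1os, which shares the CpG-rich window printed above, was counted 40, 53 and 43 times in WT 1 to 3, against 135, 114 and 188 times in KO 1 to 3. As for Lhx1, its groups did not overlap. Lhx1os rose 2.73-fold (log2 fold change 1.45, SE 0.20, edgeR adjusted p = 0.00217). Aatf, the gene 4762 bases from the other end of Lhx1, rose 1.17-fold (28.0 ± 0.909 to 32.7 ± 1.84 CPM, edgeR adjusted p = 0.0466).

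Lhx5 (ENSMUSG00000029595, chromosome 5, 120431699 to 120441223, protein coding), the closest relative of Lhx1, varied within both groups. It was at 9.77, 22.1 and 19.0 CPM in WT 1 to 3, against 27.0, 16.5 and 35.2 CPM in KO 1 to 3. WT 1 was low and KO 2 lay below 2 of the WT libraries, so the groups overlapped, with coefficients of variation of 37.8% and 35.7%. The fold was 1.56 with a 95% interval from 0.791 to 3.10 (log2 fold change 0.65, edgeR adjusted p = 0.295), which includes both no difference and the size seen for Lhx1. The log2 ratio of Lhx1 to Lhx5, per length, was -1.94, -2.45 and -2.52 in WT 1 to 3, against -1.81, -1.12 and -2.05 in KO 1 to 3. These ranges overlapped (mean difference 0.64, two-sided exact permutation test, p = 0.2). With 3 libraries a group this test cannot go below 0.1, so it cannot decide whether the pair differed in response. The antisense model Gm27199, which shares 69 exonic bases with Lhx5, had 1.90 ± 0.547 and 2.87 ± 0.384 CPM (edgeR adjusted p = 0.0723), and reads in the shared bases cannot be told apart without strand, nor can those in the 188 exonic bases that Gm27196 shares with Lhx3.

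**Figure D2:**
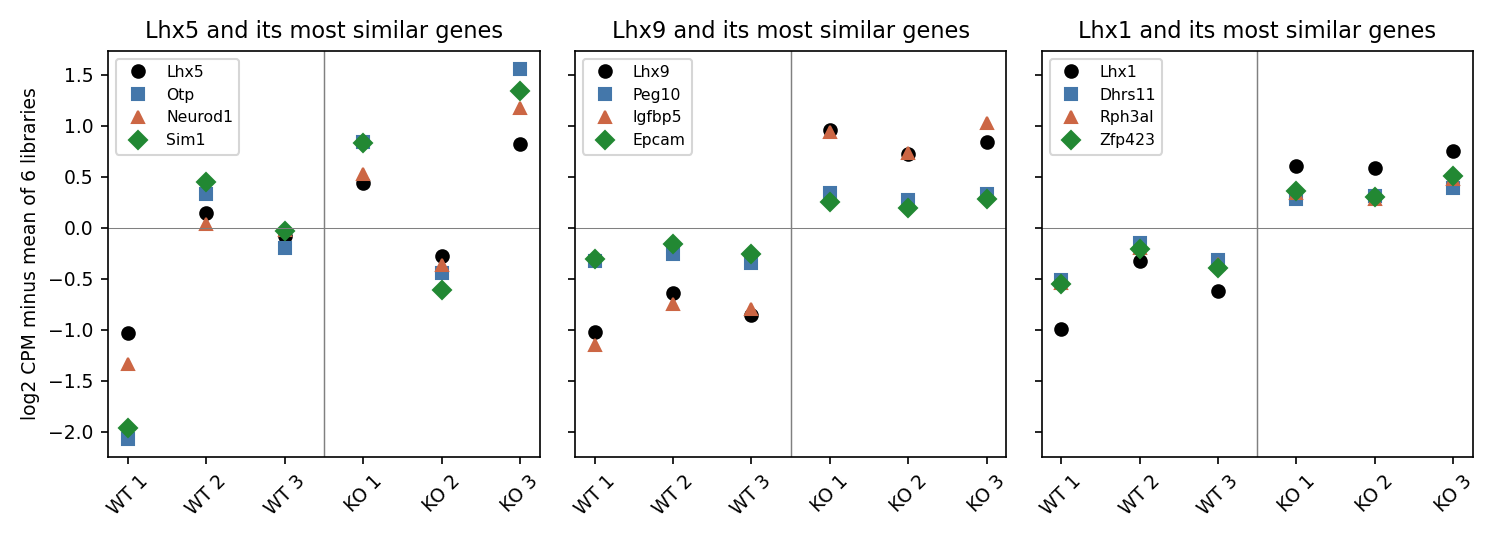
log2 CPM in each library, minus the gene's mean over the 6 libraries, for Lhx5, Lhx9 and Lhx1 (black circles) with the 3 genes whose values follow each most closely; the grey line parts WT from KO. Lhx5 is low in WT 1 and KO 2 together with Otp, Neurod1 and Sim1, while Lhx9 and Lhx1 separate the groups without overlap.

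The genes whose log2 CPM followed each member most closely over the 6 libraries were sought among 12647 protein-coding genes. For Lhx5 they were Otp (Pearson r = 0.9988), Neurod1 (0.9940) and Sim1 (0.9938). Otp and Sim1 encode transcription factors of hypothalamic neurons and Neurod1 one of differentiating excitatory neurons. Otp was at 8.10, 42.8 and 29.5 CPM in WT 1 to 3, against 60.7, 25.0 and 99.8 CPM in KO 1 to 3. Like Lhx5 it was lowest in WT 1 and, among KO libraries, in KO 2. Its groups overlapped too (edgeR adjusted p = 0.366). For Lhx9 the closest genes were Peg10 (r = 0.9961), Igfbp5 (0.9952) and Epcam (0.9950), and for Lhx1 Dhrs11 (0.9988), Rph3al (0.9969) and Zfp423 (0.9962). Dhrs11 lies 295 kb from Lhx1 on chromosome 11. For Lhx2 they were Inppl1, Mettl3 and Atp5g2 (r of at least 0.9963). Isl1 was followed less closely, by Csnk1g3 (r = 0.9635), Cdc40 (0.9511) and Tex10 (0.9410), and Lmx1a by Tmem50b (0.9854), Letm2 (0.9784) and Slc39a2 (0.9746). With 6 libraries in 2 groups and this many genes, such values are a description of shared library patterns, which depth and tissue make-up also share.

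Among themselves, Lhx1 and Lhx9 followed each other most closely of the 15 pairs of the 6 tested members (r = 0.9821 over 6 libraries). Lhx5 correlated less with Lhx1 (0.7377) and Lhx9 (0.6526), and Isl1 ran opposite to Lhx5 (-0.8238). These values include the difference between the groups.

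Some markers of neighbouring tissue in which Lhx1, Lhx2, Lhx5 and Lhx9 are also active differed between the groups, and others did not. Over all tested genes 9.72% were called higher and 10.5% lower, the shares to set beside the counts of each list below. Of 14 pallial genes 7 rose and 7 did not pass. Their summed level was 56.1 to 94.9 CPM in WT and 105 to 172 CPM in KO pools, and Tbr1, which marks early excitatory neurons, rose 1.72-fold to 40.6 ± 4.36 CPM (edgeR adjusted p = 0.0278). Without WT 1, WT 2, WT 3 or KO 3 the number that rose was 2, 3, 2 and 3. Of 13 genes of Cajal-Retzius cells and the thalamic eminence 5 rose and 1 fell, with summed levels of 382 to 446 and 372 to 462 CPM. Trp73, a transcription factor gene of hem-derived Cajal-Retzius cells, rose from 8.07 ± 0.977 to 15.0 ± 0.855 CPM (edgeR adjusted p = 0.000905), while Reln, which these cells secrete as reelin, had 122 ± 24.2 and 108 ± 38.9 CPM (edgeR adjusted p = 0.698). In this list 3 rose without WT 3, KO 1 or KO 3, and the 1 that fell (Ebf1) lost its call without WT 3 or KO 2. The lists share genes, so some calls are counted again. Tbr1 and Eomes are also in the pallial list, Barhl2 in the diencephalic list and Ebf1 in the striatal list.

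Of 24 genes of the diencephalon and hypothalamus 15 were tested, 4 rose, 1 fell and 9 were under the filter. Their summed level ran from 69.7 to 147 CPM in WT and from 135 to 268 CPM in KO pools, and Foxa2 had no count in any library. A large part of these sums was Otp, which had no call (26.8 ± 17.5 CPM in WT and 61.8 ± 37.4 CPM in KO pools). Dbx1, which encodes a homeobox protein of progenitors, rose 6.29-fold to 3.59 ± 1.82 CPM (edgeR adjusted p = 0.00643). Barhl2, a gene of the thalamic eminence and diencephalon, rose from 3.18 ± 0.833 to 6.86 ± 0.874 CPM (edgeR adjusted p = 0.00511). The 1 that fell was Tcf7l2, a gene of the thalamus, and it lost its call without WT 2, WT 3 or any KO library. It also lost its call with all libraries kept when counts were scaled by the upper quartile. The septal and preoptic list had 6 of 12 tested genes higher (3 without WT 3) and 1 lower, with summed levels of 393 to 500.2 and 561 to 625 CPM. Dbx1 is among the 6 and is also in the diencephalic list. The part of these markers in the values of Lhx1, Lhx2, Lhx5 and Lhx9 was not tested.

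Isl1 (ENSMUSG00000042258, chromosome 13, 116298281 to 116309689, protein coding), the most abundant member in WT, is a transcription factor gene of striatal projection neurons and of forebrain cholinergic neurons. It was at 119, 94.7 and 113 CPM in WT 1 to 3, against 101, 106 and 96.9 CPM in KO 1 to 3. The groups overlapped, with WT 2 lowest of all. The fold was 0.928 with a 95% interval from 0.815 to 1.06 (edgeR adjusted p = 0.375), so a fall to below 0.815 of WT lies outside it. In the same libraries 13 of 18 striatal projection neuron genes fell and 5 did not pass, with a median log2 fold change of -0.63 (7 fell without WT 3 and 8 without KO 2). Of all tested genes 10.5% fell. Ikzf1 fell from 6.34 ± 1.51 to 1.58 ± 0.203 CPM, Rarb from 15.2 ± 3.69 to 4.27 ± 1.13 CPM and Ebf1 from 107 ± 22.6 to 50.6 ± 14.1 CPM, with edgeR adjusted p values of 0.000334, 0.00147 and 0.0297 in that order. The summed level of that list was 1508 to 1819 CPM in WT and 1016 to 1216 CPM in KO pools.

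In the cholinergic list 4 of 11 genes rose and 3 fell (2 rose without WT 3). Ache, which breaks acetylcholine down, did not pass (10.5 ± 2.27 and 8.86 ± 0.508 CPM, edgeR adjusted p = 0.283). Chat, which makes acetylcholine, fell from 1.87 ± 0.122 to 0.831 ± 0.152 CPM (edgeR adjusted p = 0.00424), Slc18a3, its vesicular transporter, from 4.18 ± 0.289 to 2.28 ± 0.485 CPM (edgeR adjusted p = 0.00851) and Slc5a7, the choline transporter gene, from 2.97 ± 0.327 to 1.77 ± 0.388 CPM (edgeR adjusted p = 0.0221). The 4 that rose, Gbx1, Gbx2, Zic1 and Zic4, are transcription factor genes of the ventral and septal forebrain. Gbx2 is also in the diencephalic list, and Zic1 and Zic4 are in the septal and preoptic list. Isl1 itself thus had no call beside lists with calls, and the difference between them was not tested. Isl2, the relative of Isl1, was counted 7, 5 and 5 times in WT and 7, 6 and 10 times in KO, under the filter.

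Lmx1a (ENSMUSG00000026686, chromosome 1, 167689237 to 167848741, protein coding), a roof plate and cortical hem gene, was near 1 CPM throughout. It was at 1.02, 1.37 and 1.20 CPM in WT 1 to 3, against 0.834, 1.40 and 1.39 CPM in KO 1 to 3, so the groups overlapped and KO 1 was lowest. The fold was 1.02 with a 95% interval from 0.705 to 1.47 (edgeR adjusted p = 0.950). Among 12 tested genes of the hem, roof plate and choroid plexus 1 rose and 2 fell, and 5 more were under the filter (1 fell without WT 1, WT 2 or WT 3, and 2 rose without KO 1). Their summed level was 56.7 to 58.7 CPM in WT and 70.3 to 83.6 CPM in KO pools, a difference that lay largely in Otx2. Otx2, a homeobox gene of hem, choroid plexus and diencephalon, was the 1 that rose, from 12.03 ± 1.26 to 31.6 ± 3.88 CPM (edgeR adjusted p = 0.000111). The 2 that fell were Bmp6, from 0.935 ± 0.0601 to 0.210 ± 0.112 CPM (edgeR adjusted p = 0.00392), and Foxj1, from 13.5 ± 0.772 to 8.99 ± 1.68 CPM (edgeR adjusted p = 0.0177). Ttr, the defining choroid plexus transcript, stood at 0.117 ± 0.106 and 0.0604 ± 0.0427 CPM. Rxrg, a retinoid receptor gene 49614 bases from Lmx1a, fell from 12.6 ± 1.73 to 5.13 ± 1.36 CPM (edgeR adjusted p = 0.00209).

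The 4 members under the filter were near the limit of these libraries, in which 3 counts equal 0.0543 to 0.0896 CPM. Lmx1b, a gene of dopaminergic and serotonergic neurons, was counted 2, 1 and 2 times in WT and 1, 4 and 5 times in KO. Lhx3 had 0, 0 and 6 in WT and 2, 1 and 7 in KO, and a count of 0 allows up to 0.0650 CPM in WT 1 and 0.0896 CPM in WT 2. Lhx4 had 5, 3 and 5 in WT and 3, 1 and 3 in KO. Fitted without a filter, none of these and Isl2 passed (edgeR adjusted p from 0.454 to 0.830). The KO libraries of Isl2 lay above and those of Lhx4 below all WT libraries in CPM, by a few counts. With them 4 of 10 members lay higher and 1 lower without overlap, against 20.3% and 19.6% of all tested genes. Those shares leave out genes under the filter such as Isl2 and Lhx4. Of the tested members Lhx1, Lhx2 and Lhx9 lay higher without overlap, and the others overlapped. Like the members under the filter, genes of the hindbrain and spinal cord were sparse. Of these 13 of 14 were under the filter, and Hoxa3, Hoxa5, Hoxb5, Hoxc6 and Hoxd4 had no count at all.

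Set against the MGE's own pair, the members gained in share. Over the summed per-length level of all 12 genes the 10 members made up 20.9%, 20.1% and 22.2% in WT 1 to 3, against 26.6%, 22.9% and 25.9% in KO 1 to 3. Every KO library was above every WT library. Lhx2 went from 6.83 ± 0.495% to 9.55 ± 0.577%, Lhx5 from 2.49 ± 0.979% to 3.74 ± 1.32%, Lhx1 from 0.482 ± 0.116% to 1.13 ± 0.0856% and Lhx9 from 0.245 ± 0.0362% to 0.761 ± 0.120%, while Isl1 had 10.8 ± 1.24% and 9.79 ± 0.895%. Lhx6, which directs MGE interneuron fate, went from 53.2 ± 0.763% to 39.9 ± 1.01%, and Lhx8, of cholinergic and pallidal neurons, from 25.7 ± 0.853% to 35.0 ± 2.76%. In counts, Lhx6 fell (log2 fold change -0.38, edgeR adjusted p = 0.00627) and Lhx8 rose (log2 fold change 0.49, edgeR adjusted p = 0.00952, and 0.0509 without WT 3). The summed level of the 12 genes was 255 ± 8.55 RPKM in WT and 263 ± 20.1 RPKM in KO pools.

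**Figure D3:**
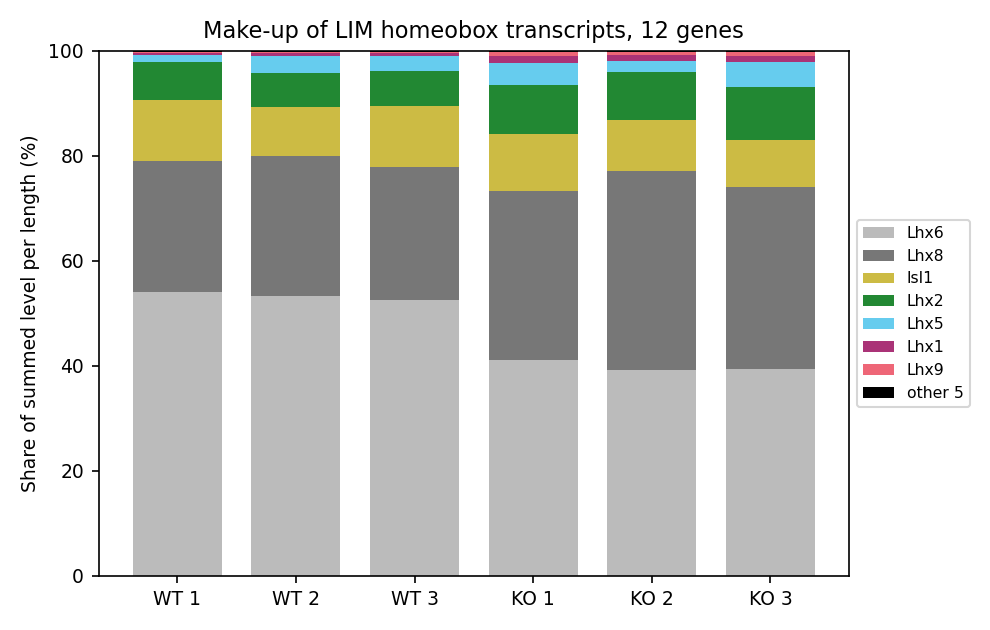
Share (%) of each LIM homeobox gene in the summed per-length level of 12 such genes, per library. The part above the grey Lhx6 and Lhx8 bars, the 10 members, takes 20.1% to 22.2% in WT and 22.9% to 26.6% in KO, and the Lhx6 part is smaller in each KO library than in each WT library.

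Among the partners of LIM homeodomain proteins 3 of 10 rose, 1 fell and 6 did not pass. Over all tested genes 9.72% rose and 10.5% fell. Lmo1, a LIM-only gene, was at 72.1, 64.2 and 66.4 CPM in WT 1 to 3, against 110, 147 and 168 CPM in KO 1 to 3. KO 1 was lowest of its group but above all WT libraries. Lmo1 rose 2.09-fold (log2 fold change 1.07, SE 0.14, edgeR adjusted p = 0.00224). Lmo3, another LIM-only gene, went the other way. It was at 163, 176 and 178 CPM in WT 1 to 3, against 123, 109 and 103 CPM in KO 1 to 3, and fell by 0.63 on the log2 scale (SE 0.07, edgeR adjusted p = 0.000827). Lmo2 (14.3 ± 0.959 and 12.7 ± 1.32 CPM) and Lmo4 (127 ± 4.47 and 133 ± 10.7 CPM) did not pass.

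The adaptor Ldb1 was at 413 ± 13.1 CPM in WT against 437 ± 30.03 CPM in KO pools (log2 fold change 0.08, SE 0.07, edgeR adjusted p = 0.413, and 0.0261 without KO 1). Its relative Ldb2 had 10.6 ± 1.85 and 10.3 ± 1.84 CPM. Of the single-stranded DNA binding proteins that stabilise Ldb1, Ssbp3 rose 1.26-fold to 387 ± 26.3 CPM (edgeR adjusted p = 0.00875) and Ssbp4 1.30-fold to 78.7 ± 9.33 CPM (edgeR adjusted p = 0.0181). The call of Ssbp4 was lost without WT 1, WT 2, WT 3, KO 2 or KO 3 (edgeR adjusted p from 0.0508 to 0.0688). Ssbp2 (130 ± 2.77 and 132 ± 2.81 CPM) and Rlim, a ubiquitin ligase gene for Ldb1 complexes (68.5 ± 3.03 and 67.5 ± 2.93 CPM), did not pass. The median log2 fold change of the 10 partners was 0.05.

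**Figure D4:**
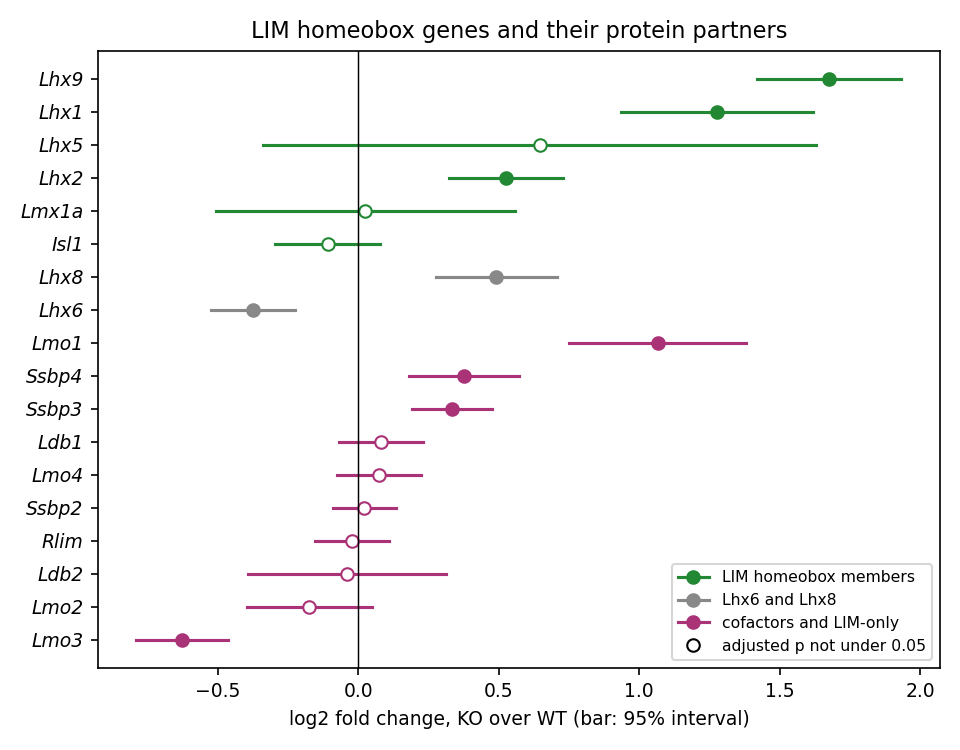
log2 fold change of KO over WT with its 95% interval for the 6 tested members (green), Lhx6 and Lhx8 (grey) and 10 partner genes (purple); open points did not pass an edgeR adjusted p of 0.05. Lhx9 and Lhx1 lie farthest to the right, the interval of Lhx5 is the widest, and Lmo1 and Lmo3 lie on opposite sides of 0.

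Within 100 kb of the members 25 other genes were tested, a window chosen after values had been seen. Of these 6 rose and 3 fell, which is 36.0% against 20.2% of all genes. The 25 include neighbours of the untested Lhx3, Lhx4, Isl2 and Lmx1b. They also include Gm27197, Gm13584 and Gm27199, whose counts may hold reads of Lhx2 or Lhx5. The largest rises were those of Lhx1os, Gm27197 and Sdsl, a dehydratase-like gene 16963 bases from Lhx5, which went from 1.06 ± 0.432 to 2.04 ± 0.440 CPM (edgeR adjusted p = 0.0456). The MGE identity list held Lhx6 and Lhx8 with 11 further genes, and 3 of its 13 rose and 4 fell (2 fell without WT 1, WT 2, WT 3 or KO 2, and 5 rose without KO 1). Gsx2, a progenitor gene of the ventral forebrain, rose 1.98-fold and Gad1, which makes GABA, fell by 0.36 on the log2 scale.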

How the data were processed

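Total RNA from 6 pools was sequenced. The submitters' processing notes name STAR 2.5.2b, Trimmomatic 0.36, DESeq2, Subread 1.5.2 and featureCounts, and GRCm38 as the build. Raw counts of reads per gene, as the authors deposited them, were the input of each test. Their normalized table was not used.

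Symbols, positions and exon lengths came from GENCODE M21 (GRCm38), which held 49056 of 49315 gene IDs, and promoters from RefSeq (GRCm38.p6; 9 of the 10 members matched). The filter was filterByExpr with a minimum count of 10 and a minimum total of 15. The main test was edgeR 4.0.16 (R 4.3.3), quasi-likelihood with robust spread, with TMM factors and Benjamini-Hochberg adjustment over all 18079 genes at 0.05. CPM values use the TMM factors, and values are mean ± SD (n = 3). RPKM is CPM per kilobase of the union of exons. Log2 ratios between members added 1 count. The most similar genes were the 3 with the highest Pearson r of log2 CPM (prior count 2), among protein-coding genes with a mean of at least 1 CPM. The test was checked on simulated data.

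The labels describe separate pools. The replicate numbers are not said to pair them, so the comparison was unpaired. Limits on counts of 0 (3 counts) cover counting error only. The members, the marker lists and the rule for named genes (all members, Lhx6, Lhx8, Prdm16, up to 5 genes of each list with the smallest unadjusted p, the lists' defining markers and the most similar genes) were chosen with earlier results of these data known. The neighbours, Xist, the Y-linked genes, Olig3 and further partner and list genes outside that rule were named after their values were seen. Alternatives were other scalings, filters and spreads, DESeq2 1.42.0, limma 3.58.1 voom, the replicate block and each library left out.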

Additional observations from a re-analysis of the deposited data

How the results depend on the processing

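Lhx1, Lhx2 and Lhx9 kept their direction and call under all 15 alternatives, with log2 fold changes from 1.12 to 1.45, 0.45 to 0.62 and 1.59 to 1.78. The number of members called was 3 higher and 0 lower in each. Lhx5 ranged from 0.37 to 0.89 and Isl1 from -0.20 to -0.03 without a call. Lmx1a, with 0.03 in the comparison as reported, came to -0.0020 with the replicate block, -0.08 without WT 1, -0.08 without KO 2 and -0.10 without KO 3, and ranged up to 0.24 without KO 1. The partners Ldb2 and Rlim also changed sign near 0. Ldb2 ranged from -0.19 (without KO 1) to 0.076 (without WT 3), with 0.026 without KO 2 and 0.048 without KO 3. Rlim ranged from -0.042 (without WT 3) to 0.0221 (without KO 3), with 0.0217 without WT 1. Over all genes, fits with fewer samples called between 464 (without WT 3) and 3752 (without KO 1) higher and between 727 and 3804 lower genes when each library was left out. With the replicate block, 862 genes were called higher and 1219 lower, and the cause was not tested. Pools that share only a number had deviations from their group means with correlations of -0.08, -0.12 and 0.03. The log2 ratio of Lhx9 to Lhx2 differed by 0.97 to 1.29 and that of Lhx1 to Lhx5 by 0.37 to 0.84 with 1 library left out, and as paired differences by 1.15 and 0.64 (exact sign-flip p = 0.25, the smallest that 3 pairs allow). Ratios for Isl2, Lmx1b, Lhx3 and Lhx4 were not computed, since at least 1 gene of each pair was under the filter. The median of all genes lay between -0.014 and 0.0051 under the other scalings. At 0 to 10 counts per library, changes in Lhx3, Lhx4, Isl2 and Lmx1b were not detectable. In the hindbrain and spinal cord list Olig3, its 1 tested gene, was called without KO 2.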
